A study of Rattus norvegicus with 78 samples.

Results

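Slc22a18, Mall, Prm1, Krt35, Klk10, Cldn3, Tifab, Acsbg2, Fdcsp and Csf3 are 10 transcripts best known outside the nervous system, out of 9667 named genes and 26419 features measured. They were chosen because their intensity was higher in the amygdala of paroxetine-exposed rats at postnatal day (P) 14 or P21, so those contrasts are given as a description without a test. Each is represented by a single array feature. The rule of choice used no other comparison of exposure, age or region below, but members were chosen with earlier results of these data known. The animals were male rats of a line selectively bred as Low Responders, that is, for low locomotor response to novelty, and every group was drawn from this line. Exposed offspring came from dams given paroxetine, an antidepressant that blocks serotonin reuptake, at 10 mg/kg/day in drinking water from before conception until weaning at P21, and control offspring came from dams on plain water. Exposed and control groups were measured in amygdala and in hippocampus at P7, P14, P21 and P75, which gave 16 groups and 78 single-colour NimbleGen arrays. Each group had 5 arrays except both exposed P7 groups, which had 4. At P75 the pups had been off the drug since weaning, and the sources used here do not say which littermates shared a dam, so the p-values below measure only the spread between arrays.

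As background, several of these genes serve surfaces and secretions rather than brain. Krt35 is a hair keratin, Cldn3 is a claudin that seals tight junctions between epithelial cells, Klk10 is a secreted kallikrein-related serine peptidase, and Mall is a MAL-family proteolipid of membrane rafts. Prm1 encodes protamine 1, which replaces histones when sperm chromatin is packed, and Acsbg2 is a bubblegum-type acyl-CoA synthetase known from testis. Slc22a18 is an organic cation transporter-like membrane protein from an imprinted gene cluster. Csf3 is granulocyte colony-stimulating factor, Tifab is a TIFA-related inhibitor of TRAF signalling, and Fdcsp is a small peptide secreted by follicular dendritic cells and oral epithelium.

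Promoter sequence is shown for the 3 transcripts in which a searched motif was present, and the part of these motifs in the transcripts' levels was not tested. The windows run from 250 bases before to 50 bases after the annotated start, are taken from RefSeq (assembly GRCr8), read 5′ to 3′ along the gene, and carry the matched letters in capitals.
Prm1 (chr10:5378490-5378789, plus strand): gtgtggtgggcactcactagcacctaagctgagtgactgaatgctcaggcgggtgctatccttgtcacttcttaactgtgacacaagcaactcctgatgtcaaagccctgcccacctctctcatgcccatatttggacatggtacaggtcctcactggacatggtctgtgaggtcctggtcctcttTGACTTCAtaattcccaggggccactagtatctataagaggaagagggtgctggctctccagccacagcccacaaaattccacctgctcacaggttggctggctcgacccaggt
Krt35 (chr10:85529919-85530218, minus strand): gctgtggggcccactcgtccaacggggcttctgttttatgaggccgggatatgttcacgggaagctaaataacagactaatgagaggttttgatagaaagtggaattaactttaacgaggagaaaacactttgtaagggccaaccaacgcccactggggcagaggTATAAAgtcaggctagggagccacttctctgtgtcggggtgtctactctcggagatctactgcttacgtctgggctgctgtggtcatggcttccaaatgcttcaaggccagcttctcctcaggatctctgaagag
Fdcsp (chr14:20453178-20453477, minus strand): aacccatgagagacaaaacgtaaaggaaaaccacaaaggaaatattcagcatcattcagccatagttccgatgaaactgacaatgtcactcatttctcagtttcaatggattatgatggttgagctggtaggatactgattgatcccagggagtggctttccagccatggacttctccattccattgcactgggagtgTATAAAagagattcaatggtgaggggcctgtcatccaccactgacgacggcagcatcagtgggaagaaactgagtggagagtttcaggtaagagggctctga
In Prm1 the capitals mark TGACTTCA, a letter string resembling a cAMP response element, which begins 64 bases before the start. In Krt35 and Fdcsp they mark TATAAA, which begins 85 and 52 bases before the start. Of 33469 RefSeq promoter windows of the same length, 14.2% hold TATAAA and 1.73% hold TGACTTCA on either strand. The other letters searched on both strands were TGACTCA, held by 4.63% of windows, TGACGTCA, held by 1.83%, and a pair of NF-kappaB strings, held by 0.111% and 0.0747%. None of these was found in a member's window, and 6 of the 9 members with a window held no searched string. The 9 windows had a median GC content of 53.3%, against 51.7% over all windows, and a median of 5 CG dinucleotides, against 7. The members lie on 7 chromosomes, with Prm1, Krt35 and Csf3 on chromosome 10 and Slc22a18 and Klk10 on chromosome 1.

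Array intensities are linear values normalised by the authors, and no sequencing depth applies. Arrays of one group correlated at 0.926 to 0.985 over all features. Some arrays stood apart from their group. Exposed amygdala arrays 1 and 2 at P75 lay far along the first principal component of all other features, exposed hippocampal arrays 1 and 2 at P7 separated from arrays 3 and 4 on the second, and control hippocampal arrays 4 and 5 at P14 separated from arrays 1 to 3 on the first. Exposure tests at these ages are given with and without them, as are the amygdala change from P7 to P75 and the test between regions at P75. The test between regions at P7 and the F test over ages were not repeated with these arrays left out together, and correlations include them. Markers of amygdala neurons, of which 6 of 12 were measured, summed to 20025 to 24109 on exposed amygdala arrays, against 30387 to 34034 on controls, at P14, and to 22173 to 29866, against 41118 to 47071, at P75. The summed level was therefore lower in exposed rats at both ages with no overlap, whereas at P21 it was 28403 to 30771, against 28668 to 33828. The part of dissection in the results below was not tested, and in bulk tissue fewer cells of a type and less RNA per cell cannot be told apart.

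In the amygdala at P14, all 10 transcripts were brighter on every exposed array than on any control array, with differences of 1.88 to 2.72 on the log2 scale and a median of 2.21. Over all features, 10.3% had every exposed array above every control array, and the median difference was -0.06, but the members were chosen on this contrast and nothing is read from their count. Slc22a18, the transporter-like protein, gave 775, 893, 1079, 886 and 763 on the exposed arrays, against 185, 114, 94.0, 162 and 127 on the control arrays. The dimmest exposed array was therefore well above the brightest control array, and the log2 difference was 2.72, rank 13 of 26419 features. Among the surface and barrier genes, the hair keratin Krt35 gave 2048, 2261, 1987, 2273 and 2637 on the exposed arrays, against 650.1, 450.5, 396, 371 and 611 on the control arrays. Cldn3, the tight junction claudin, gave 439, 535, 503, 553 and 422 on the exposed arrays, against 109.7, 177, 91.1, 93.0 and 79.1 on the control arrays. The kallikrein-related peptidase Klk10 gave 444, 362, 329, 407 and 463 on the exposed arrays, against 123, 90.4, 87.1, 69.6 and 85.5 on the control arrays. None of these 3 genes had overlapping groups, and their log2 differences were 2.21, 2.21 and 2.15. The raft proteolipid Mall gave 1183, 931, 1119, 1054 and 1212 on the exposed arrays, against 332, 194, 169, 174 and 154 on the control arrays, a log2 difference of 2.48.

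The testis-associated transcripts differed by similar amounts. Prm1, the sperm chromatin protamine, gave 2568, 2527, 2440.2, 2391 and 2526 on the exposed arrays, against 616, 308, 462, 488 and 444 on the control arrays. Acsbg2, the acyl-CoA synthetase, gave 316, 353, 292, 311 and 303 on the exposed arrays, against 82.7, 82.4, 105, 68.4 and 73.7 on the control arrays. The exposed arrays of both genes were tightly grouped, with means of 2490.3 ± 72.4 for Prm1 and 315 ± 23.2 for Acsbg2 (SD, n = 5), and log2 differences of 2.46 and 1.95. Of the immune-associated transcripts, Fdcsp gave 1365, 1336, 1008, 1606 and 1293 on the exposed arrays, against 300.2, 349.7, 301, 117 and 259 on the control arrays. Its control array 4 was the lowest and lay well under the other 4, and the log2 difference was 2.39. Csf3, the granulocyte growth factor, gave 670.2, 599, 442, 543 and 505 on the exposed arrays, against 195, 128, 130.0, 179 and 125 on the control arrays. The TRAF pathway inhibitor Tifab gave 846, 756, 922, 939 and 1036 on the exposed arrays, against 318, 149, 215, 181 and 223 on the control arrays. Csf3 had the smallest difference of the 10 at this age, 1.88, at rank 212, and Tifab differed by 2.09.

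At P21, the day of weaning, 9 of the 10 were again brighter on every exposed amygdala array than on any control array, against 10.6% of features, and Klk10 overlapped. The log2 differences ran from 0.45 in Klk10 to 2.49 in Fdcsp, with a median of 1.54, beside -0.07 over all features. Fdcsp gave 1416, 1289.8, 1241, 1456 and 1763 on the exposed arrays, against 229, 238, 203, 284 and 329 on the control arrays, which put it at rank 6 of all features by difference. Slc22a18 gave 1088, 1334, 1033, 885 and 934 on the exposed arrays, against 231, 311, 231, 256 and 275 on the control arrays, and its log2 difference was 2.01. Csf3 gave 573, 696, 711, 673 and 835 on the exposed arrays, against 283, 180.0, 203, 191 and 219.6 on the control arrays. The exposed arrays were far above the controls in all 3, and in Slc22a18 every P21 control array was above every P14 control array. Prm1 gave 2231, 2877, 2145, 2658 and 3019 on the exposed arrays, against 976, 1282, 1012, 1417 and 727 on the control arrays. Its control arrays were brighter than the P14 controls, at 463 ± 110.0 at P14 and 1083 ± 271 at P21 (mean ± SD, n = 5). The exposed mean was 2490.3 ± 72.4 at P14 and 2586 ± 387 at P21 (SD, n = 5), so the difference of 1.28 was smaller. Klk10 gave 370.5, 464, 199, 343 and 381 on the exposed arrays, against 294, 249, 234, 259 and 209 on the control arrays. Exposed array 3 was its lowest value and lay under every control array. Of the remaining members, Krt35 differed by 1.70, Mall by 1.61, Cldn3 by 1.48, Tifab by 1.18 and Acsbg2 by 1.14. The rule sets no numeric threshold, and the lowest ranks by difference were 212 for Csf3 at P14 and 3960 for Klk10 at P21.

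**Figure D1:**
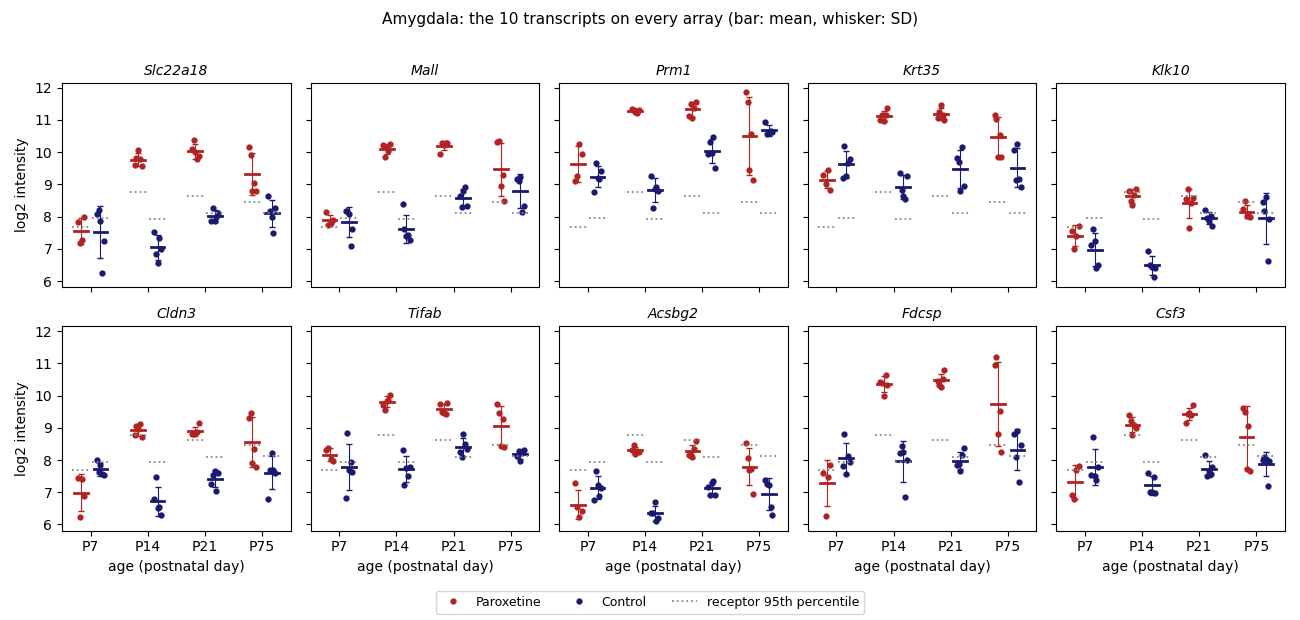
Log2 intensity (vertical axis) of each transcript on every amygdala array by postnatal age (horizontal axis), with exposed arrays in red at the left of each pair and control arrays in dark blue at the right; bars are means, whiskers are SD, and the dotted line is the mean 95th percentile of the receptor features in that group. All 10 transcripts separate at P14, 9 at P21, and at P75 exposed arrays 1 and 2 lie above the other exposed arrays in most panels.

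At P7 the amygdala did not show the pattern. None of the 10 transcripts passed limma's test with Benjamini-Hochberg adjustment over all features at 0.05, 2 had an unadjusted p under 0.05, and 7.83% of features were called. The differences were split evenly, 5 above and 5 below 0, with a median of -0.22, against 0.08 over all features. Prm1 gave 545, 612, 1222 and 975 on the exposed arrays, against 433, 814, 587, 571 and 685 on the control arrays, and the arms overlapped. Fdcsp gave 196, 76.2, 178 and 231 on the exposed arrays, against 227, 452, 188, 282 and 246 on the control arrays, a difference of -0.76 ± 0.42 (SE; adjusted p = 0.259, limma). Cldn3 gave 174, 74.7, 169 and 117 on the exposed arrays, against 255, 199.9, 231, 191 and 184 on the control arrays. Cldn3 was the only member whose arms did not overlap, with every exposed array below every control array, against 2.14% of features, and its difference of -0.73 ± 0.28 (SE) had an adjusted p of 0.102 in limma. The other 7 members differed by -0.52 in Acsbg2 to 0.43 in Klk10, with overlapping arms.

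In adult amygdala at P75, after weaning had ended the exposure, 7 of the 10 transcripts were called higher in exposed rats in the fit of all amygdala arrays, against 9.35% of features, and the median difference was 0.87, against -0.03 over all features. The 7 were Slc22a18, Krt35, Cldn3, Tifab, Acsbg2, Fdcsp and Csf3. Mall, Prm1 and Klk10 were not called. Slc22a18 gave 1132, 967, 440.5, 524 and 443 on the exposed arrays, against 398, 287, 252, 179 and 308 on the control arrays, so every exposed array was above every control array, by 1.23 ± 0.28 on the log2 scale (SE; adjusted p = 0.00143, limma). Tifab gave 852, 697, 349, 619 and 339 on the exposed arrays, against 278, 312, 248, 297 and 316 on the control arrays, again with no overlap, by 0.88 ± 0.24 (SE; adjusted p = 0.00782, limma). Those were the only members without overlap, 2 of 10, against 5.14% of features. Fdcsp gave 1984, 2369, 446, 728 and 307 on the exposed arrays, against 453, 271, 479, 160.3 and 357 on the control arrays. Exposed arrays 1 and 2 were above every control array by a wide margin while exposed arrays 3 and 5 lay among the controls, and the difference of 1.42 ± 0.39 (SE; adjusted p = 0.00754, limma) rested on those arrays.

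Exposed arrays 1 and 2 were the brightest exposed arrays for all 10 members. Prm1 gave 3716, 2996, 698, 1506 and 567 on the exposed arrays, against 1974, 1498, 1543, 1612 and 1571 on the control arrays. Its exposed arrays lay on both sides of the controls, and the difference was -0.16 ± 0.32 (SE; adjusted p = 0.779, limma). With those exposed arrays left out, 1 of the 10 members was called, Prm1, and it was lower in exposed rats by 0.95 on the log2 scale (adjusted p = 0.00899, limma). Without them Slc22a18 differed by 0.76 (adjusted p = 0.0704, limma), Fdcsp by 0.53 (adjusted p = 0.332) and Csf3 by 0.27 (adjusted p = 0.586). The amygdala tests and the tests between regions estimate spread from all arrays fitted, including the amygdala arrays at P14 and P21 on which the members were chosen. In a fit of the P75 arrays alone, 2 members were called, Slc22a18 (adjusted p = 0.0221, limma) and Tifab (adjusted p = 0.0395, limma). Fdcsp had an adjusted p of 0.103 in that fit (limma). Among the 7 members called in the fit of all amygdala arrays the adult difference was 0.84 to 1.42. None of the 7 was called in that fit without exposed arrays 1 and 2.

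The exposure difference itself changed between P7 and P75 in the amygdala for 6 of the 10 transcripts, all upward, against 5.42% of features called upward. Fdcsp had the largest change, 2.18 ± 0.57 on the log2 scale (SE; adjusted p = 0.00735, limma interaction), followed by Cldn3 at 1.68 ± 0.39 (adjusted p = 0.00267). Krt35 changed by 1.44, Acsbg2 by 1.37, Csf3 by 1.32 and Slc22a18 by 1.19. Mall, Prm1, Klk10 and Tifab did not pass, with values of 0.62, -0.55, -0.24 and 0.49. Without exposed arrays 1 and 2 at P75, 3 members passed, Cldn3 (1.13) and Acsbg2 (1.04) upward and Prm1 downward (-1.35). A fit of these groups alone called 3 members, all upward.

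In control amygdala the ages P7 and P75 were compared with a test. Between P7 and P75, Prm1 was higher by 1.43 ± 0.32 (SE; adjusted p = 0.000829, limma), Klk10 by 0.97 ± 0.26 (adjusted p = 0.00461) and Mall by 0.97 ± 0.27 (adjusted p = 0.00700). These 3 of 10 stand beside 13.8% of features called higher, and no member was called lower. The other 7 differed by -0.20 in Acsbg2 to 0.58 in Slc22a18. In a fit of these control groups alone 2 members were called, and Klk10 was not (adjusted p = 0.0994, limma). In exposed amygdala the order of mean log2 levels was P21, P14, P75 and then P7 from brightest to dimmest for Slc22a18, Mall, Prm1, Krt35, Fdcsp and Csf3. Slc22a18 did not differ beyond its spread between the brightest groups, with 885 to 1334 on exposed arrays at P21 and 763 to 1079 at P14. For Klk10, Cldn3, Tifab and Acsbg2 the brightest group was exposed P14, with exposed P21 next, and those groups overlapped in each of the 4. Control P14 was the dimmest of the 8 amygdala groups for 9 of the 10 members, the exception being Fdcsp, for which exposed P7 was dimmest.

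In the hippocampus the same 10 transcripts had an exposure difference of one sign before P21 and of the other sign from P21 on. At P7, 9 of 10 were called higher in exposed rats, against 25.1% of features, with a median difference of 1.23, against 0.07 over all features. All 9 had every exposed array above every control array, against 16.7% of features, and Fdcsp was the exception. Prm1 gave 6112, 4920.4, 2551 and 2518 on the exposed arrays, against 1057, 869, 1032, 675 and 963 on the control arrays, a difference of 2.04 ± 0.22 on the log2 scale (SE; adjusted p = 5.53e-10, limma). Mall gave 2448, 2155, 1061 and 1173 on the exposed arrays, against 604, 484, 544, 439 and 546 on the control arrays, a difference of 1.62 ± 0.22 (SE; adjusted p = 1.34e-07, limma). In both, exposed arrays 1 and 2 were brighter than arrays 3 and 4, and all 4 were above the controls. Krt35 gave 1802, 2447, 1916 and 1887 on the exposed arrays, against 863, 678, 718, 848 and 811 on the control arrays, where no such split was seen, and its difference was 1.36 ± 0.18 (SE; adjusted p = 8.82e-08, limma). Fdcsp gave 1122, 1604, 452 and 482 on the exposed arrays, against 570.4, 569, 664, 486 and 519.5 on the control arrays. Its exposed arrays 1 and 2 were above and arrays 3 and 4 below the controls, and the difference of 0.50 ± 0.37 did not pass (SE; adjusted p = 0.257, limma). The remaining called members were Tifab at 1.41, Acsbg2 at 1.26, Cldn3 at 1.21, Slc22a18 at 1.12, Csf3 at 1.02 and Klk10 at 0.88. Without exposed arrays 1 and 2, 7 members were called, and without arrays 3 and 4 all 10 were. In the same comparison 9 of 11 neuron markers and 8 of 9 astrocyte markers fell, beside 28.3% of features called lower, with medians of -1.18 and -1.52. There 8 of 12 choroid plexus markers rose, beside 25.1% of features called higher, with a median of 0.78. The part of these markers' cell types in the members' differences was not tested.

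At P14, 8 of 10 were called higher in exposed hippocampus, where 4236 of 26419 features were called higher and 38.2% in either direction, with a median difference of 0.76, against 0.01 over all features. Every exposed array was above every control array in 4 members, Slc22a18, Prm1, Cldn3 and Acsbg2, against 8.86% of features. Prm1 gave 1988, 2143, 1909.9, 2393 and 2207 on the exposed arrays, against 1206, 1133, 1327, 807 and 479.7 on the control arrays, a difference of 1.19 ± 0.21 (SE; adjusted p = 1.80e-05, limma). Krt35 gave 1302, 1427, 1174, 1572 and 1594 on the exposed arrays, against 673, 1244, 602, 637 and 435 on the control arrays, a difference of 1.06 ± 0.17 (SE; adjusted p = 7.54e-06, limma), and control array 2 reached into the exposed range. Fdcsp, which was not called, gave 449.8, 535, 382, 440.5 and 566 on the exposed arrays, against 308, 668, 648, 161 and 81.0 on the control arrays. Control arrays 4 and 5 were its lowest, as they were for Slc22a18, Mall and Prm1. With control arrays 4 and 5 left out, 4 members were called, Prm1 (0.80), Krt35 (0.82), Cldn3 (0.75) and Acsbg2 (0.88), and the features called fell to 6147, against 10101 with them. Klk10 differed by 0.39 and was not called, and without those controls its difference was -0.11.

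At P21 all 10 transcripts were called lower in exposed hippocampus, against 10.6% of features, and in all 10 every exposed array was below every control array, against 8.48% of features. The median difference was -1.11, against 0.04 over all features. Prm1 gave 2016, 1945, 1903, 1891 and 2218 on the exposed arrays, against 7135, 5616, 5932, 6135 and 6365 on the control arrays, and fell by 1.64 on the log2 scale (0.21 SE; adjusted p = 9.21e-07, limma). Slc22a18 gave 392, 361, 369, 357 and 394 on the exposed arrays, against 1183, 958, 1237, 1198 and 1096 on the control arrays, and fell by 1.59 (0.20 SE; adjusted p = 7.03e-07, limma). Fdcsp gave 456, 402, 387, 374 and 355 on the exposed arrays, against 1102, 1617, 1181, 1260.3 and 1027 on the control arrays, and fell by 1.64 (0.35 SE; adjusted p = 0.000706, limma). Each of these 3 was several times brighter in controls, with no array out of place. Csf3 gave 419, 371, 316, 245 and 311 on the exposed arrays, against 735, 926, 761, 856 and 758 on the control arrays, and Tifab, whose difference of -0.75 was the smallest, gave 581, 377, 602, 371 and 454 on the exposed arrays, against 825, 813, 815, 777 and 702 on the control arrays. The other members fell by 0.81 in Acsbg2 to 1.12 in Mall.

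At P75, 9 of 10 were called lower in exposed hippocampus, against 18.6% of features, and Fdcsp did not pass. The median difference was -0.98, against 0.02 over all features, and 8 members had every exposed array below every control array, against 9.49% of features. Prm1 gave 1693, 1243, 1531, 1718 and 1893 on the exposed arrays, against 6250.3, 5764, 6716, 5709 and 5970.3 on the control arrays, and fell by 1.92 (0.21 SE; adjusted p = 3.84e-09, limma). Mall gave 844, 1167, 983, 787 and 643 on the exposed arrays, against 2222, 1933, 2282, 2187 and 1949 on the control arrays, and fell by 1.28 (0.21 SE; adjusted p = 7.72e-06, limma). Both had separated arms, while Acsbg2 overlapped, with 119.6 to 374 on exposed arrays, against 363 to 749.9 on control arrays. Fdcsp gave 926, 1043, 1053, 964 and 854 on the exposed arrays, against 1366, 1579, 1528, 1004 and 1927 on the control arrays. Its control array 4 lay within the exposed range, and the difference of -0.59 ± 0.35 (SE) had an adjusted p of 0.178 in limma. The other called members fell by 0.84 in Cldn3 to 1.26 in Slc22a18.

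**Figure D2:**
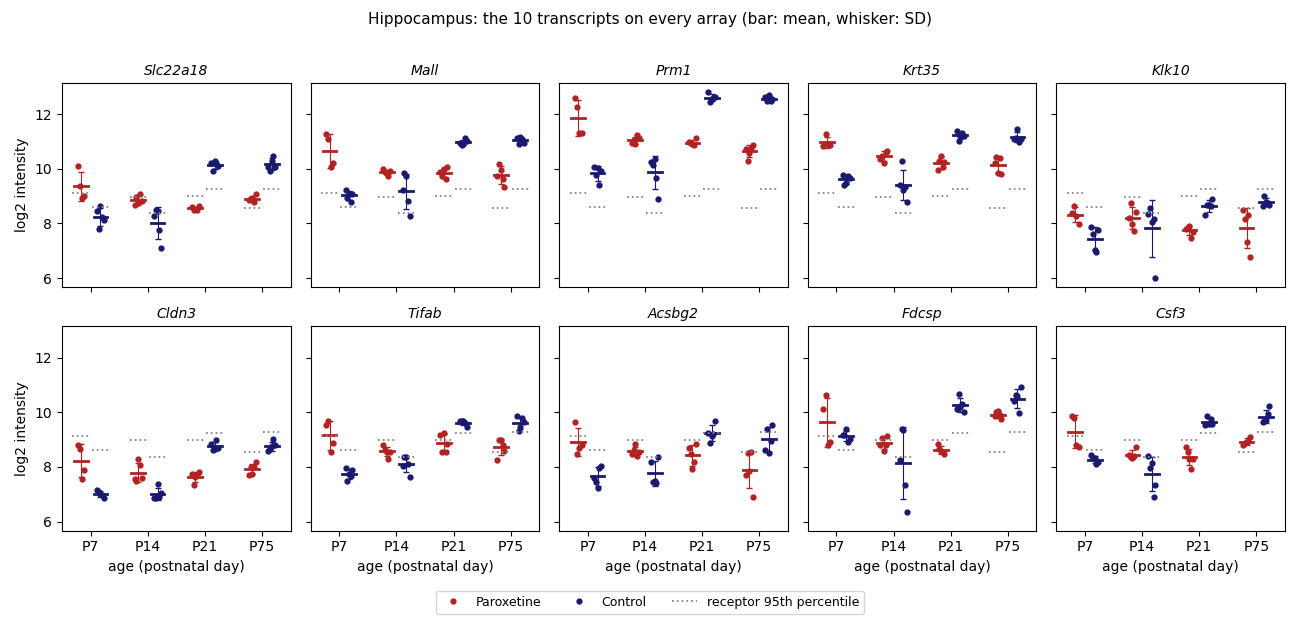
Log2 intensity (vertical axis) of each transcript on every hippocampal array by postnatal age (horizontal axis), exposed arrays in red at the left and control arrays in dark blue at the right of each pair, with means, SD whiskers and the mean 95th percentile of the receptor features as a dotted line. Red lies above blue at P7 in 9 panels and below blue at P21 in all 10.

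The 4 hippocampal differences were not equal for any member: limma's F test over the ages passed for 10 of 10, against 63.5% of features, with adjusted p of 4.45e-15 in Prm1 to 0.000659 in Klk10. The sign changed where the control level changed. Prm1 averaged 919 ± 155 at P7, 990.4 ± 344 at P14, 6237 ± 572 at P21 and 6082 ± 413 at P75 in controls (SD, n = 5). In exposed hippocampus it averaged 4025 ± 1789 at P7 (SD, n = 4), 2128 ± 189.6 at P14, 1995 ± 134 at P21 and 1616 ± 245 at P75 (SD, n = 5). Controls were therefore dim until P14 and bright from P21, whereas the exposed mean was highest at P7. All 10 members were higher at P75 than at P7 in control hippocampus, against 29.4% of features, by 1.33 in Klk10 to 2.74 in Prm1 on the log2 scale, with adjusted p of 4.62e-14 in Prm1 to 0.000896 in Fdcsp (limma). Control P75 or control P21 was the brightest hippocampal group for every member, and for none did every array of the brightest group exceed every array of the next.

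The exposure effect differed between regions at P7 and P75, the ages that the rule of choice did not use. At P7 the hippocampal difference exceeded the amygdalar one for 8 of 10 members, against 20.0% of features, by 1.01 in Tifab to 1.94 in Cldn3 (adjusted p = 0.00753 and 2.05e-06, limma). Klk10 and Fdcsp did not pass, at 0.44 and 1.26. At P75 the amygdalar difference exceeded the hippocampal one for all 10, against 14.6% of features, with hippocampal minus amygdalar differences of -1.15 in Klk10 to -2.49 in Slc22a18 (adjusted p = 0.0234 and 3.35e-08, limma). Without exposed amygdalar arrays 1 and 2 at P75, 8 of the 10 still passed. In fits of the groups compared alone, 6 members passed at P7 and 9 at P75. Only differences of differences are compared across regions, since it is not known whether both regions were normalised together.

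**Figure D3:**
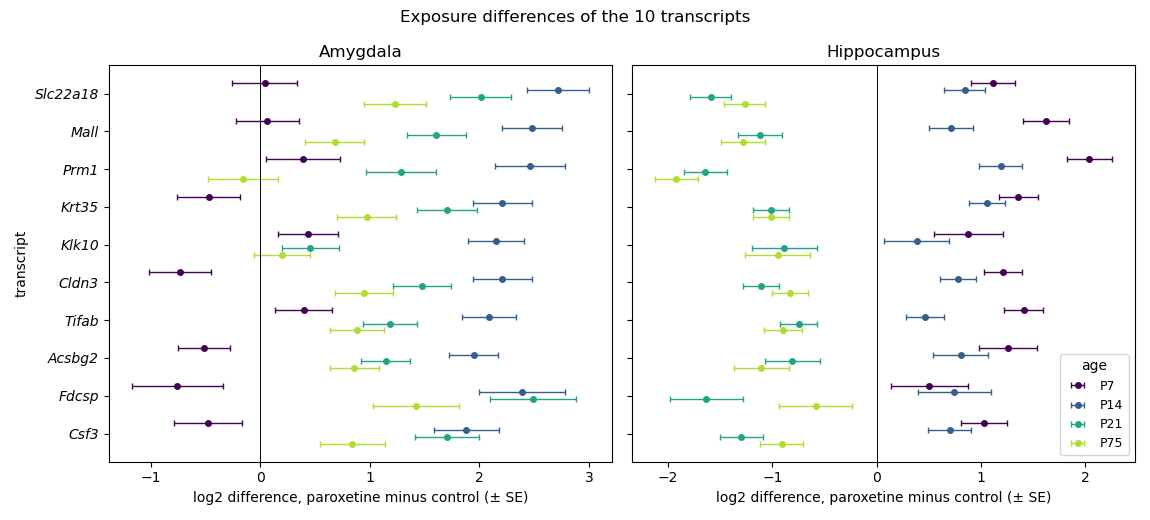
Log2 difference in intensity, paroxetine minus control, with its SE (horizontal axis) for each transcript (vertical axis) at the 4 ages, amygdala at the left and hippocampus at the right. In amygdala the P14 and P21 points lie right of 0, and in hippocampus the P7 and P14 points lie right of 0 and the P21 and P75 points left of it.

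Levels were set against a background made of 116 of the 1232 features for olfactory and vomeronasal receptors, those whose symbols begin with Olr, Vom1r or Vom2r. Such receptors sense odours in the nose and are taken here as transcripts not known for brain expression. A member value above the 95th percentile of the 116 features on its own array was counted as above background. This held for 228 of 390 member values in amygdala and for 200 of 390 in hippocampus. The share of all features above this cut was not counted, so these counts are not read as a result about the members. On control amygdala array 3 at P7 the median of all features was 7.83 on the log2 scale and the cut was 7.61. On control hippocampal array 1 at P21 they were 7.87 and 9.53. Prm1 and Krt35 were above the cut on all 39 arrays of each region, and Mall on 33 amygdalar and all 39 hippocampal arrays. Acsbg2 was above it on none of 39 amygdalar and 6 of 39 hippocampal arrays, Klk10 on 9 and 0, and Cldn3 on 13 and 1. The exposed amygdala had 40 of 50 values above it at P14, against 16 of 50 in controls, and 41 of 50 at P21, against 24 of 50. The members were chosen on these arrays, so these counts are in part set by that choice. At P7 these were 20 of 40 in exposed and 21 of 50 in control amygdala, and at P75 38 of 50 and 28 of 50. In hippocampus at P21 the exposed arrays had 17 of 50, against 36 of 50 in controls, and at P7 21 of 40, against 20 of 50. At P14 they had 17 of 50, against 18 of 50 in controls, and at P75 34 of 50, against 37 of 50, so these counts were nearly level at ages where most members were called. The background was not fixed: the receptors' 95th percentile averaged 437 on exposed amygdalar arrays and 250.5 on control arrays at P14, 398 and 275 at P21, and 508 and 614 in hippocampus at P21. On exposed and control hippocampal arrays it averaged 563 and 393 at P7, 506 and 341 at P14, and 375 and 622 at P75. In amygdala it averaged 368 and 280 at P75, and 210 and 248 at P7, where no member was called. The percentile therefore differed between arms with the sign of the members' median difference in every comparison. Its part in the members' differences was not tested. A probe's brightness also depends on its sequence, so positions against this background do not rank the transcripts' abundance.

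The transcripts were compared with the main axis of variation among arrays. The amygdalar arrays include those at P14 and P21 on which the members were chosen, so their amygdalar correlations are in part set by that choice and are given as a description. The first principal component of all other features held 27.6% of the variance in amygdala and 39.1% in hippocampus, and over 39 arrays the joint level of the 10 correlated with it at r = 0.962 in amygdala and 0.910 in hippocampus. Within groups the same correlations were 0.915 and 0.795, with the arrays that stand apart included. The component's SD was 30.6 in exposed amygdala at P75, against 2.29 to 9.87 in the other amygdala groups. In hippocampus its SD was widest in controls at P14, at 21.1. Single members correlated at 0.807 in Klk10 to 0.956 in amygdala, and 3.09% of all features reached the lowest of them, while in hippocampus they ran from 0.585 in Fdcsp to 0.937 in Prm1, which 16.3% of features reached. Each array's interquartile log2 range differed between arms. In exposed and control hippocampus it averaged 2.79 and 3.21 at P7, and 2.87 and 3.14 at P14. At P21 it was 2.89 and 2.74, and at P75 2.97 and 2.72. Amygdalar means were 3.38 and 3.14 at P7, 3.02 and 3.19 at P14, 3.003 and 3.18 at P21, and 3.06 and 3.099 at P75. Arms overlapped only in amygdala at P14 and P75. In every comparison the range's difference opposed the members' median difference in sign. Its part was not tested. A random control probe, which matches no transcript, also differed between arms. In hippocampus it averaged 53.0 in exposed and 44.0 in control arrays at P7, 48.6 and 45.2 at P14, 47.6 and 55.2 at P21, and 49.0 and 56.3 at P75. Those differences have the signs of the members' differences at all 4 ages, and the joint level correlated with the probe at r = 0.952 over the 39 hippocampal arrays and 0.442 within groups. In amygdala the probe averaged 46.1 in exposed and 47.1 in control arrays at P14, 46.7 and 45.3 at P21, 44.6 and 48.9 at P7, and 46.1 and 50.8 at P75, and its correlation with the joint level was -0.0954 over the 39 arrays and 0.275 within groups. At P75 the probe was lower in exposed amygdala while 7 members were called higher. The two-sided exact permutation p of the probe's difference was 0.00794 at hippocampal P14, P21 and P75, the smallest that 5 against 5 arrays can give, and 0.0159 at hippocampal P7 (adjusted over 8 comparisons, 0.0127 and 0.0181). In amygdala the same exact test gave 0.0159 at P7, 0.159 at P14, and 0.00794 at P21 and at P75 (adjusted over the 8, 0.0181, 0.159, 0.0127 and 0.0127). With the probe as a covariate no member was called in hippocampus at P7, P21 or P75 and 1 was called at P14, but the probe does not overlap between arms there, so probe and exposure cannot be told apart in that fit. In amygdala at P75, 5 members were called with the covariate, and there too the probe's arms do not overlap, at 44.3 to 47.5 in exposed and 50.2 to 51.3 in control arrays, so the same limit holds. The points of these correlations are arrays that share age, exposure and region, and no batch is given in the labels.

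**Figure D4:**
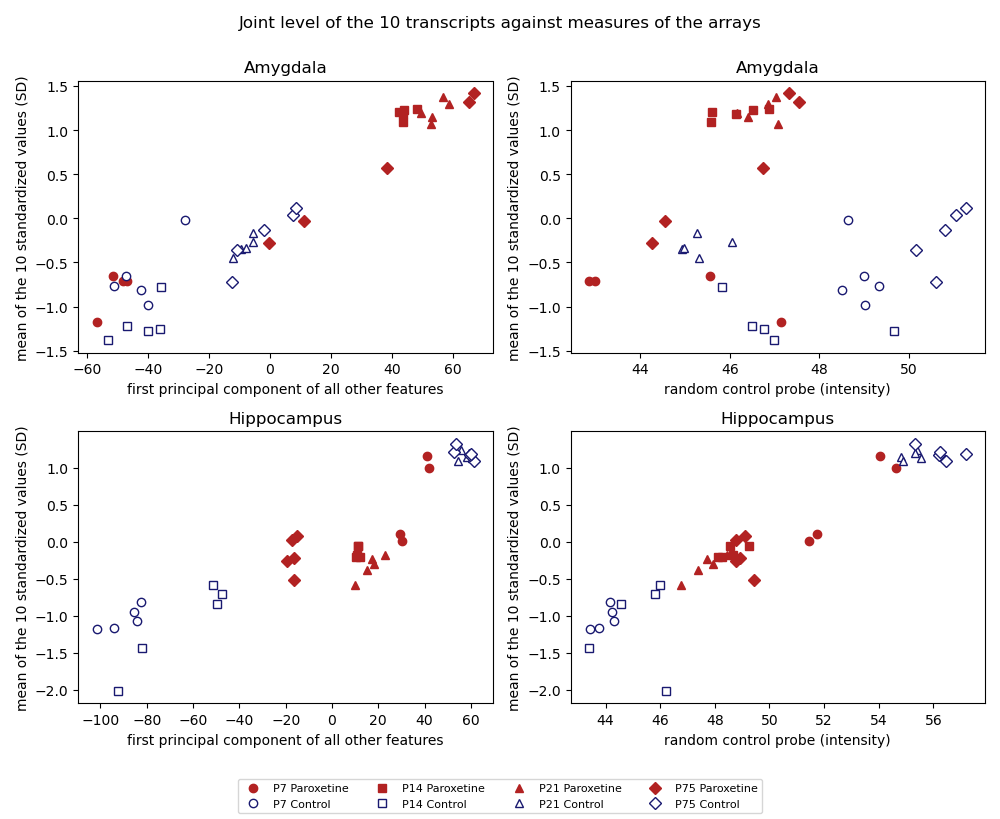
Joint level of the 10 transcripts (vertical axis, mean of standardized log2 values in SD) against the first principal component of all other features (left panels, arbitrary units) and against the random control probe (right panels, intensity), 1 point per array, amygdala above and hippocampus below, filled red for exposed and open blue for control, with a marker shape per age. The joint level climbs with the component in both regions (r = 0.962 and 0.910) and with the probe in hippocampus (r = 0.952).

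Correlations among the members are a description, since the amygdalar arrays include those on which they were chosen. Over the 39 amygdalar arrays the 45 pairs correlated at 0.691 (Klk10 and Cldn3) to 0.948 (Slc22a18 and Mall) with a median of 0.860, and within groups the median was 0.495. In hippocampus the pairs ran from 0.368 (Acsbg2 and Fdcsp) to 0.959 (Mall and Prm1) with a median of 0.815, and 0.442 within groups. Such likeness was not rare on these arrays, since 768 other features (2.91%) correlated with the members' joint level at 0.8 or more in amygdala and 560 (2.12%) at -0.8 or less. The named genes most like the joint level over the 39 amygdalar arrays were Or2t45 (r = 0.96), Or2y13, Unc13d, Or1f26 and Smcp (r = 0.95 each). Or2t45, Or2y13 and Or1f26 are olfactory receptors, Unc13d primes secretory granules for release in immune cells, and Smcp is a sperm mitochondrial protein. Or2t45 differed between exposed and control amygdala by 2.45 at P14 and 1.597 at P21, and between exposed and control hippocampus by 1.49 at P7 and -1.14 at P21. Over the 39 hippocampal arrays the named genes most like the joint level were Cldn14, Or9s23, RT1-O1, Crh and Ccdc134 (r = 0.963 to 0.953). Crh, a neuropeptide, differed by 1.63 in amygdala at P14, and in hippocampus by 1.64 at P7 and -1.24 at P21.

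Some gene families of the members, with the members left out, showed part of the same course, while others had shares rising near or under that of all features. Of 8 measured kallikreins, 5 rose and none fell in exposed amygdala at P14 (adjusted p under 0.05 in limma), beside 16.5% of features called higher, and the family's median difference was 0.89, beside -0.06 over all features. Klk1b3, a tissue kallikrein of the rat, rose by 1.47 and Klk1 by 1.09 on the log2 scale, while Klk6, which is expressed by oligodendrocytes, differed by -0.10 and was not called. In hippocampus 6 kallikreins rose at P7 and none fell, and 6 fell at P75 and none rose, beside 25.1% of features called higher at P7 and 18.6% called lower at P75, with medians of 0.98 and -0.59. Of 38 keratins, 12 rose and 3 fell in amygdala at P14, and 7 rose and 2 fell at P21 (9.45% of features called higher), with medians of 0.43 and 0.14. Krt17, a keratin of stratified epithelium, rose by 1.51 at P14 and by 1.22 at P21. Krt20, a keratin of gut epithelium, went the other way and fell by 0.85 and 0.77. In hippocampus 15 keratins rose and none fell at P7, and 1 rose and 15 fell at P75, beside the same shares of features, with medians of 0.45 and -0.32.

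Among 15 claudins and other tight junction proteins, 4 rose and 1 fell in amygdala at P14, and 5 rose and none fell at P21. The medians were 0.36 and 0.40, and over all features 16.5% and 9.45% were called higher at these ages. Cldn23, an epithelial claudin, rose by 1.09 at P14, while Cldn11, the claudin of myelin, differed by 0.04 and was not called. Cldn5, the claudin of brain endothelium, fell by 2.49 in exposed hippocampus at P7, where 7 of the list rose and 2 fell. Over all features 25.1% were called higher there. Among relatives of Prm1, 25 spermatid proteins, 4 rose and 2 fell in amygdala at P14, a share rising of 16%, near that of all features, with a median of -0.22. Smcp rose by 1.82 at P14, Prm2, the second protamine, differed by 0.30 and was not called, and Odf2, which is also a centrosomal protein, fell by 0.53. Of 14 acyl-CoA synthetases, 1 rose and 1 fell in amygdala at P14, and in hippocampus none rose and 7 fell at P7, beside 28.3% of features called lower, opposite in sign to Acsbg2. Acsbg1, the brain paralogue of Acsbg2, rose by 0.76 in amygdala at P14 and fell by 1.06 in hippocampus at P7.

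Of 15 secretory calcium-binding phosphoproteins, the gene cluster to which Fdcsp belongs, 2 rose and 1 fell in amygdala at P14, with a median of 0.14. Over all features 16.5% were called higher in that comparison, to which the counts below also belong. Oprpn rose by 2.03 and Amtn, an enamel protein, by 1.03. Of 20 genes of granulocyte growth factor and cytokine signalling, 3 rose and none fell at P14 (median 0.02), and Csf1r, the receptor of microglia, differed by 0.00. Of 6 TIFA and TRAF signalling genes 1 rose, Ikbkg, by 0.77. Of 12 other Slc22 transporters 2 rose and none fell (median -0.00), with Slc22a12 at 0.66 and Slc22a17, which is prominent in brain, at -0.03. The shares that rose in the phosphoprotein, cytokine, TIFA and Slc22 lists were 13.3%, 15%, 16.7% and 16.7%, near the share over all features. Of 11 imprinted neighbours of Slc22a18, 3 rose and 2 fell, and Cd81 differed by 0.21. Of 8 MAL proteolipids and myelin partners 4 rose and 1 fell, with Mal2 at 0.30 and Myadm at -0.50.

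**Figure D5:**
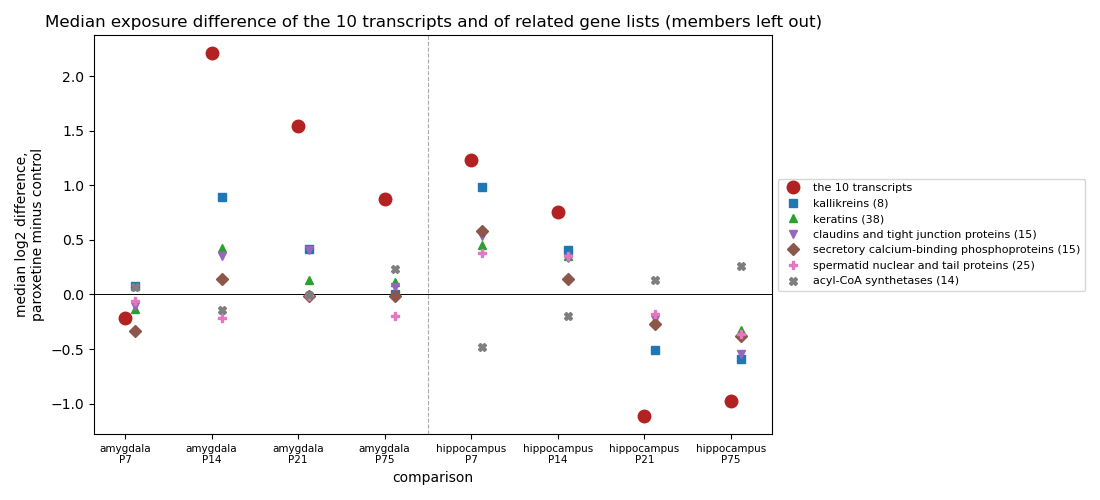
Median log2 difference, paroxetine minus control (vertical axis), of the 10 transcripts (red circles) and of 6 related gene lists without the members, in each of the 8 comparisons (horizontal axis), with the number of genes measured in the legend. The kallikrein and keratin medians have the sign of the members' median at amygdala P14 and P21 and at all 4 hippocampal ages, and the acyl-CoA synthetase median has the opposite sign at all 4 hippocampal ages.

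Marker lists of cell types that a dissection could include moved with the members in part. Markers of surface epithelium, with 12 of 15 measured, had 4 rising and 1 falling in exposed amygdala at P14, and summed to 1827 to 2234 in exposed and 1351 to 1609 in control amygdala. Cldn4 of this list rose by 1.26, while Cldn7 differed by 0.24 and was not called. Testis germ cell markers, with 11 of 12 measured, had 2 rising and 1 falling, near the 16.5% of all features called higher, and their median difference was -0.05, against -0.06 over all features. They summed to 1913 to 2490.3 in exposed and 1229 to 1714 in control amygdala. A sum weighs its brightest genes most, and Smcp of this list rose by 1.82. How much of the summed difference Smcp gave was not measured. Neutrophil markers, with 8 of 15 measured, had 1 rising and none falling, and their sums overlapped, at 552 to 687 and 548 to 717. Choroid plexus markers, with 12 of 15 measured, had 3 rising and 2 falling in exposed amygdala at P21, beside 9.45% of features called higher. They summed to 7400.1 to 8914 in exposed and 3463 to 3987 in control amygdala at that age, and Ttr, the transthyretin of that tissue, rose by 4.08. At P14, 2 of this list rose and 5 fell, beside 4361 of 26419 features called higher and 5099 called lower, and Ttr fell by 1.86. In amygdala at P75, red blood cell markers summed to 27552 to 46784 in exposed and 74501 to 89085 in control arrays, and astrocyte markers to 73034 to 96248 in exposed and 59352 to 64471 in control arrays. In hippocampus the sums of 11 of the 14 marker lists did not overlap between arms at P7, 8 of them higher and 3 lower in exposed arrays, and 11 did not at P75, 7 higher and 4 lower. Over all features at P7, 16.7% had every exposed array above and 23.7% every exposed array below every control array. At P75 these shares were 15.8% and 9.49%. They are shares of single features, not of sums. At P7 surface epithelium markers summed to 2581 to 3345 in exposed and 1379.5 to 1564 in control arrays, testis germ cell markers to 3207 to 4011 in exposed and 1552 to 1789 in control arrays, and choroid plexus markers to 8947 to 10305 in exposed and 3055 to 3566 in control arrays. At the same age neuron markers summed to 75482 to 80266 in exposed and 125561 to 136468 in control arrays, and astrocyte markers to 19562 to 20745 in exposed and 55577 to 63573 in control arrays, so these lists were lower where the members were higher. At P75, where the members were lower in exposed hippocampus, all 11 neuron markers and 5 of 9 astrocyte markers rose, beside 23.7% of features called higher. At the same age 5 of 12 surface epithelium and 4 of 11 testis germ cell markers fell and none rose, beside 18.6% of features called lower. Array intensities have a floor above 0, so no marker is at 0, and the part of these cell types in the members' differences was not tested.

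The authors' deposited table for amygdala at P14 listed 150 features, 9 of them members, all but Fdcsp, with an absolute fold of 6.58 for Slc22a18. The authors' deposited table for amygdala at P21 listed 187 features and 5 members, Slc22a18, Mall, Cldn3, Fdcsp and Csf3, with 5.62-fold for Fdcsp. The authors' deposited table for hippocampus at P21 listed 80 features and 5 members as lower, Slc22a18, Mall, Prm1, Cldn3 and Fdcsp, with 3.12-fold for Prm1. The authors' deposited table for hippocampus at P75 listed 360 features, with Prm1 (3.79-fold) and Slc22a18 (2.40-fold) lower. No member was in the authors' deposited tables for amygdala at P7 or P75 or for hippocampus at P7 or P14.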

How the data were processed

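Per the labels' protocols, RNA from each tissue sample was amplified and copied into cDNA, which carried Cy3 on 1-colour arrays. Array values were deposited by the authors as normalized intensity, not log-transformed. How they were normalized, and the genome build, is not given in the sources used here. Whether both regions were normalized together is not known. The authors also deposited 8 tables of their own comparisons, which per the file headers give the p-value of an unpaired test with Bonferroni correction and an absolute fold change. Their 312 per-array columns were not used.

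RefSeq (GRCr8) named 9747 of the 26419 features and 41 more took a name from the authors' comparisons, which left 16631 without one. Where a gene had several features, the one with the highest mean log2 stands for it. Values were analysed as log2 intensity, with no pseudocount. For each region, limma 3.58.1 in R 4.3.3 fitted group means over its 39 arrays, and all 78 arrays for region by exposure. Tests were two-sided moderated tests, called at 0.05 after Benjamini-Hochberg adjustment across the features. Exact permutation tests used scipy 1.17.1 (Python 3.11.15). The fit was tested on simulated data.

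Members and gene lists were chosen with earlier results of these data known. Named genes are the 10 members, up to 3 genes of each family list and 2 of each marker list by highest mean log2 in amygdala, and the 5 named genes most correlated with the members' joint level in each region. Alternatives were quantile normalization, the dimmer features left out, trend and robust moderation, only the groups compared, the replicate number as a block, the random control probe as covariate, each array left out, other receptor backgrounds, and arrays that stand apart left out together. The last of these was chosen after seeing the data. Precision is limited by the number of arrays.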

Additional observations from a re-analysis of the deposited data

Results flagged for a closer look

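Among 160 sets of 4 or 5 arrays, 1 per member and group, 7 held an array far from the others, where chance alone gives about 1 in 20, or 8. In exposed amygdala at P21, Cldn3 was high on array 5 (565) and Mall was low on array 1 (984). In control amygdala, Fdcsp was low on array 4 at P14 (117), and at P75 Csf3 was low on array 4 (147) and Prm1 was high on array 1 (1974). In exposed hippocampus at P14, Csf3 was high on array 5 (424), and in control hippocampus at P14, Klk10 was low on array 5 (64.2).

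The exposure difference in amygdala was larger at P75 than at P7, by limma's interaction term with Benjamini-Hochberg adjustment over all features, for 6 members: Slc22a18 by 1.19 on the log2 scale, Krt35 by 1.44, Cldn3 by 1.68, Acsbg2 by 1.37, Fdcsp by 2.18 and Csf3 by 1.32. Over all features 5.42% were called upward. From the groups compared alone 3 members were called, and without exposed arrays 1 and 2 at P75 only Cldn3 and Acsbg2 were called upward.

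The exposure difference also differed between regions by the same kind of term. At P7, hippocampus minus amygdala was 1.08 for Slc22a18, 1.56 for Mall, 1.65 for Prm1, 1.83 for Krt35, 1.94 for Cldn3, 1.01 for Tifab, 1.78 for Acsbg2 and 1.504 for Csf3. At P75 the same quantity was negative, at -2.49 for Slc22a18, -1.96 for Mall, -1.76 for Prm1, -1.98 for Krt35, -1.15 for Klk10, -1.78 for Cldn3, -1.78 for Tifab, -1.96 for Acsbg2, -2.01 for Fdcsp and -1.75 for Csf3.

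Over the 4 ages in hippocampus the exposure differences of every member were unequal by limma's F test, with adjusted p of 1.30e-11 for Slc22a18, 7.73e-11 for Mall, 4.45e-15 for Prm1, 4.65e-12 for Krt35, 0.000659 for Klk10, 7.19e-11 for Cldn3, 1.11e-09 for Tifab, 6.85e-07 for Acsbg2, 0.000223 for Fdcsp and 6.56e-09 for Csf3. The signs were positive at P7 and P14 and negative at P21 and P75 for all 10.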

How the results depend on the processing

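Member counts stayed within 1.5 times under quantile normalization, under trend and robust moderation and with a replicate block. The block called 8 members in amygdala at P75, against 7, and changed no other member count. Deviations of same-numbered exposed and control arrays from their group means correlated at -0.157 to 0.0768 over 38 pairs. No pairing by number was seen, but a weak shared effect could be missed with 4 or 5 arrays per group. In amygdala at P75, 2 members were called from the groups compared alone and 1 without exposed arrays 1 and 2, and 3284 features, against 5577, from the groups alone. The change of the difference between P7 and P75 was called in 3 members under each of these settings. In amygdala at P7 no setting called a member, but the features called, 2069, dropped to 1087 after quantile normalization, 5 from the groups alone, 269 with the random probe as covariate, and 961 without exposed array 3 or 995 without array 4. In hippocampus at P14, leaving out control arrays 4 and 5 gave 4 members and 6147 features.

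With the random probe as covariate, 0 members were called in hippocampus at P7, 1 at P14, 0 at P21, 0 at P75, 0 over the 4 ages, 0 in controls between P7 and P75, and 0 for the regions' difference at P7, and the features called were 1712 at P7, 4624 at P14, 2 at P21 and 114 at P75. That probe separates the arms in hippocampus at every age, so the fit cannot tell it apart from exposure. Under it 34 member differences changed sign, 26 of which were called without the covariate. The other 8 were Fdcsp in hippocampus at P7 (-2.23), P14 (-0.32) and P75 (1.46) and for the regions' difference at P7 (-1.07), Krt35 (0.22) and Acsbg2 (0.051) in amygdala at P7, Prm1 (0.34) there at P75, and Csf3 (-0.030) between the amygdalar control ages. Of the 26, in hippocampus at P7 they were Slc22a18 (-0.14), Mall (-0.33), Cldn3 (-0.35), Tifab (-0.068) and Csf3 (-1.15); at P14 Mall (-0.046), Tifab (-0.11) and Csf3 (-0.15); at P21 Mall (0.43), Cldn3 (0.12), Tifab (0.42), Fdcsp (0.53) and Csf3 (0.43). At P75 they were Mall (0.17), Cldn3 (0.33), Tifab (0.20) and Csf3 (0.71), and between the control ages Mall (-0.57), Cldn3 (-0.33), Tifab (-0.087), Fdcsp (-2.26) and Csf3 (-1.32). For the regions' difference at P7 they were Mall (-0.22), Prm1 (-0.060), Tifab (-0.83) and Csf3 (-0.089).

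Leaving out 1 array at a time gave 0 to 0 members in amygdala at P7 (961 to 2049 features), 5 to 8 at P75 (4759 to 5624), 4 to 6 for the change between these ages and 3 to 4 in controls between them. In hippocampus it gave 8 to 9 at P7 (13223 to 13638), 6 to 9 at P14 (8432 to 10224), 8 to 10 at P21 (5576 to 6360), 8 to 9 at P75 (10441 to 10827), and 10 to 10 over the 4 ages and in controls. For the regions' difference it gave 7 to 9 at P7 and 9 to 10 at P75. Member values above background numbered 428, against 666 with the 90th and 113 with the 99th percentile of the receptor features. With the 95th percentile of all 1232 receptor features, found by symbol or synonym, they numbered 461. A filter on dim features removed 3 members in amygdala.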
